A study of Oryza sativa with 12 samples.

Results

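The comparison described here sets all crown libraries of Zn-inefficient rice genotypes against all those of Zn-efficient ones, averaged over both zinc supplies. Such an average holds class differences found at both supplies, and also large ones found at 1 supply alone. The comparison takes in all 12 of the 12 libraries of the study, 6 in each class, and all 33277 genes of the deposited table. The Zn-efficient class of the labels is made up of Nipponbare, RIL46 and IR55179-3B-11-3. Kinandang Patong, IR74 and IR64 make up the Zn-inefficient class. Each genotype gave 1 library without Zn (0 µM ZnSO4) and 1 with Zn (1.5 µM ZnSO4), which makes 4 groups of 3 libraries. All plants had stood for 8 days in full-strength Yoshida solution that also held 0.1% agar and 1 mM KHCO3, so bicarbonate was present in both supplies. RNA came from the crown, the stem base from which leaves, tillers and crown roots emerge.

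Zinc efficiency is the ability of a plant to grow and yield where little zinc can be taken up. In rice it has been tied to the upkeep of crown root growth and to the handling of zinc by transporters and by chelators. Nicotianamine is such a chelator: it binds zinc and iron for transport within the plant and is the precursor of the mugineic acids, the phytosiderophores that grass roots release. A class difference is here a difference between these 3 and these 3 genotypes, because the libraries of a group are different genotypes. The 6 libraries of a class therefore hold 3 genotypes, each at both supplies, and are not 6 independent genotypes. Reads of all genotypes were aligned to the genome of Nipponbare, a member of the efficient class, and the effect of that choice on counts was not tested.

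A log2 difference is given throughout as inefficient over efficient, so that negative values are lower in the inefficient class. A gene is called when the adjusted p of the authors' DESeq2 test of a difference beyond 2-fold was under 0.05. The mean normalized count of a gene is its mean over all libraries after division by size factors, and its median over genes was 49.4 in the authors' deposited table. Group means named as derived were computed from the authors' deposited tables and have no error of their own. Values per library, and so their depth and their spread, were not analysed here. In bulk tissue, fewer cells of a type and less RNA per cell cannot be told apart.

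Over both supplies, 17 of 32461 genes tested were called between the classes, which is 0.0524% of them. In the inefficient class 11 of them were higher (0.0339% of genes tested) and 6 were lower (0.0185%). The differences were large: their log2 differences ranged from 4.33 to 8.32 in size, with standard errors (SE) of 0.46 to 1.66. Of the 17, 9 have no informative product description. The others are annotated as a pair of zinc finger genes, a lectin, a sugar transporter, a MADS-box factor, a PDZ domain gene, a gene similar to an iron-stress protein and one similar to a blast resistance gene. No member of a zinc transporter or nicotianamine synthase family is among them. With SEs widened by the robust SD of the statistic 6 genes kept their call (OS04G0170500, OS07G0131600, OS06G0188950, OS11G0702400, OS07G0267200 and OS03G0663100) and the other 11 did not. The inverse-variance mean of the within-supply values gave 36 calls, 26 higher and 10 lower, computed from the authors' deposited tables.

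The clearest difference was that of OS04G0170500, a gene of the CCHC zinc finger type, a domain that binds nucleic acids. Its derived mean was 174 normalized counts without Zn and 170.4 with Zn in the efficient class, against 1.03 and 0.99 in the inefficient class, computed from the authors' deposited tables. The transcript was therefore near 0 in the inefficient genotypes at either supply, and its level in the efficient ones hardly moved with the supply. The log2 difference over both supplies was -7.42 (SE 0.62, adjusted p = 7.58e-21) from the authors' deposited table. Without Zn it was -7.41 (SE 0.87) and with Zn -7.43 (SE 0.88) from the authors' deposited tables, both past the test. OS04G0170500 was the single gene called over both supplies and at each supply in the same direction. Among the other called genes, OS04G0115700, OS07G0122000, OS02G0599500, OS04G0114950, OS09G0327575 and OS06G0161100 passed the test beyond 2-fold at neither supply alone.

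The lectin precursor gene OS04G0173800, annotated as an agglutinin, a carbohydrate-binding protein, lies on the same chromosome and was also lower in the inefficient class. Derived means computed from the authors' deposited tables were 97.7 without Zn and 254 with Zn in the efficient class, and 6.17 and 3.76 in the inefficient class. The log2 difference was -5.01 (SE 0.79, adjusted p = 0.00167) from the authors' deposited table. With Zn it was -6.08 (SE 1.07) and past the test, and without Zn it was -3.99 (SE 1.04) and not past it (adjusted p = 0.773), from the authors' deposited tables. The difference between these supplies did not pass its own test (adjusted p = 0.949), computed from the authors' deposited tables as the difference of the within-supply values over their joined SE.

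The remaining 4 genes lower in the inefficient class include a member of a sugar transporter family. OS07G0131600, similar to a monosaccharide transporter, had a log2 difference of -6.12 (SE 0.94, adjusted p = 0.000317) from the authors' deposited table, at a mean of 6.48 normalized counts. OS07G0122000, with a domain of unknown function named DUF1719, had one of -5.78 (SE 0.98, adjusted p = 0.00378) from the authors' deposited table. Its derived means were 58.6 and 69.5 without and with Zn in the efficient class and 2.37 and 0.36 in the inefficient class, computed from the authors' deposited tables, so the class levels lay apart at both supplies. The conserved hypothetical gene OS06G0188950 had derived means of 38.1 and 59.2 in the efficient class against 1.02 and 3.58 in the inefficient class, computed from the authors' deposited tables, and a log2 difference of -4.50 (SE 0.64). The hypothetical gene OS04G0115700 had the largest difference of the called genes in size, -8.32 (SE 1.61, adjusted p = 0.0123) from the authors' deposited table. For OS07G0131600, OS04G0115700 and OS06G0161100, the last of which was higher in the inefficient class, no group means were derived, because their contrasts did not close to within 0.01.

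Among the genes higher in the inefficient class, OS02G0599500 is annotated as similar to an iron-stress related protein. Its derived means were 493 without Zn and 408 with Zn in the inefficient class, and 3.91 and 4.01 in the efficient class, computed from the authors' deposited tables. The derived means of each class were thus alike at both supplies, and the spread between its genotypes was not analysed here. The log2 difference over both supplies was 6.82 (SE 1.26, adjusted p = 0.00971) from the authors' deposited table. At neither supply alone was it past the test, with 6.98 (SE 1.83, adjusted p = 0.287) without Zn and 6.67 (SE 1.83) with Zn. OS09G0327575 is similar to Pi5-1, a nucleotide-binding leucine-rich repeat protein of a rice blast resistance locus. It had derived means of 80.4 and 53.3 in the inefficient class against 0.35 and 0.18 in the efficient class, computed from the authors' deposited tables. Its log2 difference was 8.03 (SE 1.40, adjusted p = 0.00185) from the authors' deposited table, and it too was past the test at neither supply alone (adjusted p = 0.231 without Zn). OS03G0663100 carries a PDZ/DHR/GLGF domain, which binds other proteins, and had derived means of 92.3 and 95.2 in the inefficient class against 0.65 and 3.21 in the efficient class, computed from the authors' deposited tables. Its log2 difference was 5.82 (SE 0.92, adjusted p = 0.000754) from the authors' deposited table. All 3 of these genes had derived means of 4.01 or less in the efficient class at each supply.

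A further 3 genes had little described function and were also called higher in the inefficient class. OS04G0114950, a non-protein coding transcript, had derived means of 33.7 without Zn and 63.1 with Zn in the inefficient class and 0.35 at both supplies in the efficient class, computed from the authors' deposited tables. Its log2 difference was 7.05 (SE 1.31, adjusted p = 0.0103) from the authors' deposited table. OS01G0290901, also non-coding, had derived means of 36.6 and 11.8 against 0.99 and 0.35, computed from the authors' deposited tables, and a log2 difference of 5.17 (SE 0.83, adjusted p = 0.00185). OS06G0161100, with a domain of unknown function named DUF569, had log2 differences of 8.15 over both supplies (SE 1.66, adjusted p = 0.0347), 8.20 without Zn and 8.10 with Zn, all in the authors' deposited tables. For these genes too the log2 difference was above 0 at each supply. OS01G0290901 passed the test beyond 2-fold without Zn but not with Zn, and OS04G0114950 and OS06G0161100 passed it at neither supply.

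**Figure D1:**
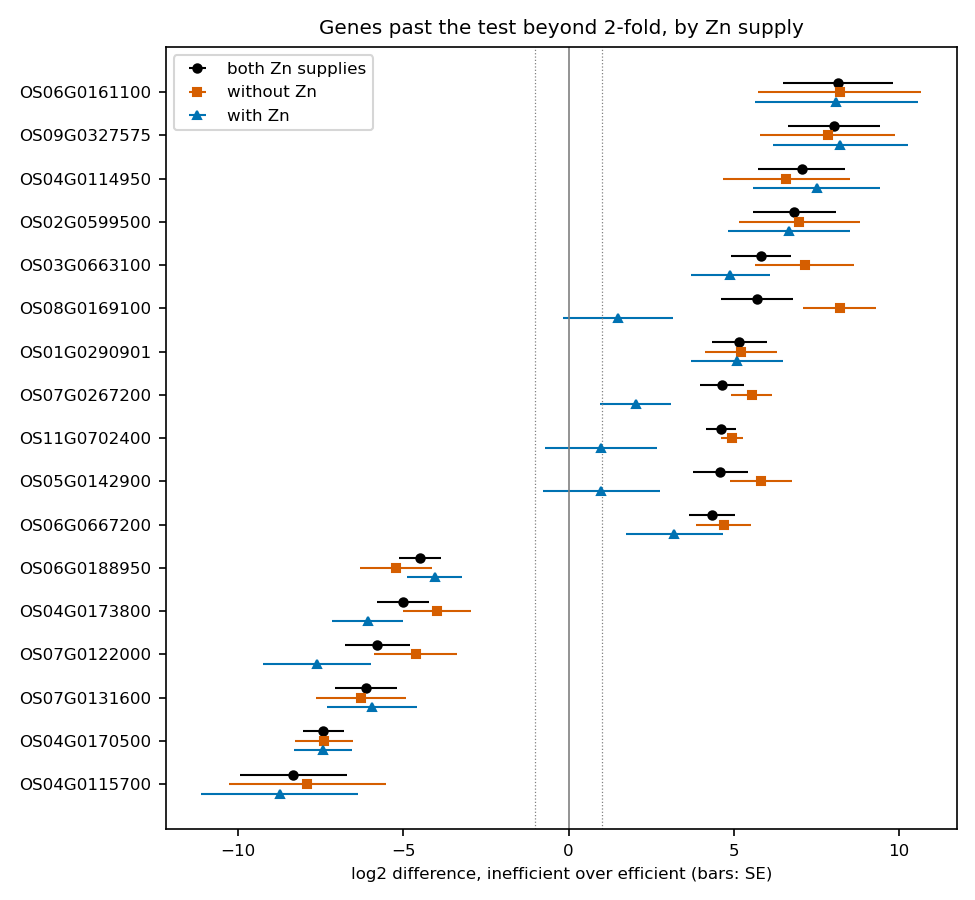
Log2 difference, inefficient over efficient, of the 17 called genes over both supplies (black circles), without Zn (orange squares) and with Zn (blue triangles), with SE as bars and dotted lines at a 2-fold difference. The sign is the same at both supplies for all 17 genes, which follows largely from their choice by the value over both supplies. The points with Zn of OS08G0169100, OS11G0702400 and OS05G0142900 lie at 1.50, 0.99 and 0.99 while those without Zn lie at 8.20, 4.93 and 5.82.

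The other 5 genes higher in the inefficient class had most of their level in the libraries without Zn. OS11G0702400, a C2H2 zinc finger gene of the DNA-binding type, had derived means of 906 in inefficient and 29.7 in efficient crowns without Zn, and 0.35 and 0.18 with Zn, computed from the authors' deposited tables. With Zn both of its derived means were under 1. Its log2 difference over both supplies was 4.61 (SE 0.46, adjusted p = 1.33e-10) from the authors' deposited table, while the within-supply values were 4.93 (SE 0.34) and 0.99 (SE 1.69). The conserved hypothetical gene OS05G0142900 had derived means of 73.7 against 1.30 without Zn and 0.35 against 0.18 with Zn, computed from the authors' deposited tables. The with-Zn log2 differences of OS05G0142900 and OS11G0702400 were the same value, 0.99, in the authors' deposited table, so at these levels they carry no measurement of a class difference with Zn. The pooled values of both genes, 4.58 and 4.61 in the authors' deposited table, also exceeded the plain means of their within-supply values, 3.41 and 2.96, by over 1. Over all genes with a mean of at least 20 normalized counts the median of that gap was 0.00148, and 45 genes had one over 1, computed from the authors' deposited tables.

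The hypothetical gene OS08G0169100 had derived means of 389 in inefficient and 1.32 in efficient crowns without Zn, and of 0.98 and 0.35 with Zn, computed from the authors' deposited tables. The class difference was thus large without Zn and between values near 0 with Zn. Its log2 difference was 5.70 over both supplies (SE 1.1, adjusted p = 0.0366) from the authors' deposited table, and the difference between supplies missed its threshold (adjusted p = 0.0507), computed from the authors' deposited tables. OS07G0267200, a conserved hypothetical gene, had derived means of 333 against 7.16 without Zn and 3.95 against 0.97 with Zn, computed from the authors' deposited tables, and a log2 difference of 4.65 (SE 0.67). OS06G0667200, a MADS-box transcription factor gene annotated for vegetative development, had derived means of 50.4 against 1.96 without Zn and 1.64 against 0.18 with Zn, computed from the authors' deposited tables. Its log2 difference was 4.33 (SE 0.69, adjusted p = 0.00413) from the authors' deposited table. No called gene (0 of 17) passed the test of a class difference that differs between supplies, computed from the authors' deposited tables. Of 32514 genes 491 (1.51%) did, 340 of them with a higher value without Zn (1.05%) and 151 with a lower one (0.464%). That share would also give about none in 17 genes. For the called genes the SE of this difference was 1.24 to 3.48, so the test could miss large ones. That none passed does not show that their class differences were alike at both supplies.

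**Figure D2:**
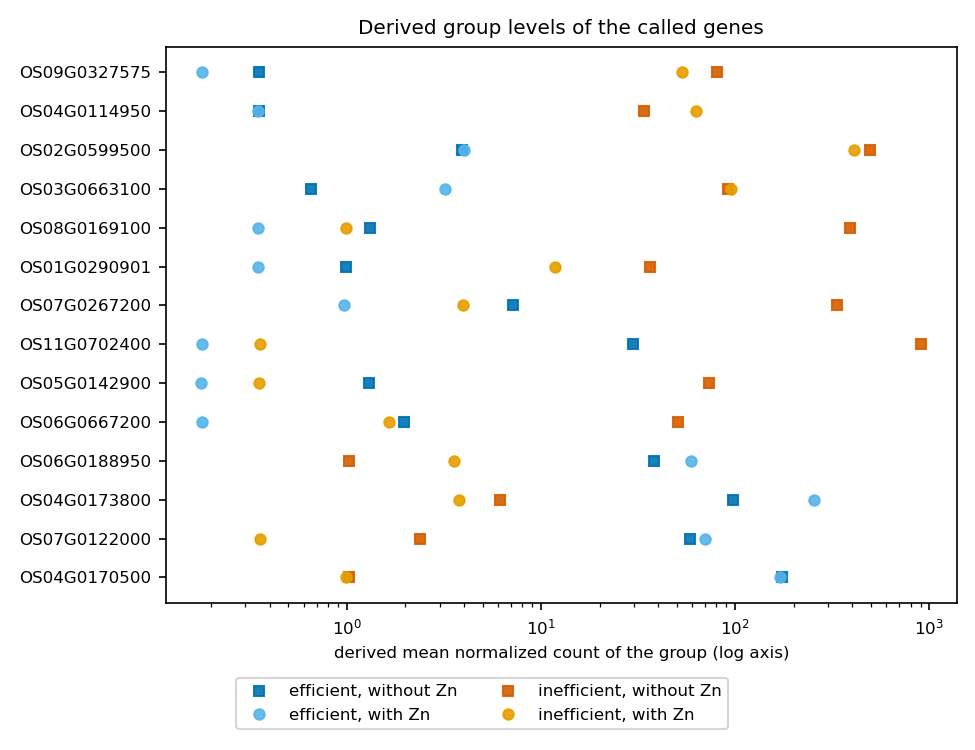
Derived mean normalized counts (log axis) of the 14 called genes with derived group means, in efficient crowns without Zn (dark blue squares) and with Zn (light blue circles) and inefficient crowns without Zn (orange squares) and with Zn (yellow circles). For OS04G0170500, OS02G0599500 and OS03G0663100 the classes lie apart at both supplies, and for OS11G0702400 and OS08G0169100 the inefficient crowns without Zn stand alone at 906 and 389.

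Many called genes were hardly detected in 1 class. A derived class mean under 1 normalized count over both supplies was found for 5 of the 14 called genes with derived means, each time in the efficient class, computed from the authors' deposited tables. That count leaves out the 3 called genes without derived means. Their Zn response was listed as exactly 0 in the lower class, which is the inefficient one for OS04G0115700 and OS07G0131600 and the efficient one for OS06G0161100, so the count is not evidence that genes near 0 lie in 1 class. Of 253 genes with any difference and derived means, 15 were under 1 in the efficient and 10 in the inefficient class, computed from the authors' deposited tables. Among all 19852 genes that reached a mean of 20 and have derived means, 5 were under 1 in the efficient class and 0 in the inefficient class. With a limit of 5 normalized counts, 9 of the 14 were near 0 in the efficient and 4 in the inefficient class, against 35 and 9 of all such genes, computed from the authors' deposited tables. For such genes the size of a log2 difference rests on counts near 0 in 1 class.

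Some genes fell just outside the threshold. They were OS12G0100100, similar to ALY, an adaptor of mRNA export, at -2.00 (SE 0.24, adjusted p = 0.0548), and OS04G0316200, a gene with the DUF26 domain of cysteine-rich receptor-like kinases, at -5.09 (SE 0.98, adjusted p = 0.0548), both in the authors' deposited table. OS04G0316200 had derived means of 246 and 217 without and with Zn in the efficient class and of 7.53 and 6.08 in the inefficient class, computed from the authors' deposited tables. OS01G0120300, similar to a leucine-tRNA ligase, followed at -3.42 (SE 0.62, adjusted p = 0.123) from the authors' deposited table.

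A test of any difference, in place of one beyond 2-fold, was computed from the log2 difference and SE of the authors' deposited table with Benjamini-Hochberg adjustment over all genes tested. It passed 261 of 32461 genes (0.804%), with 108 higher (0.333%) and 153 lower (0.471%) in the inefficient class. Their median difference was 1.36 in size on the log2 scale, 107 were under 1, and 259 had the same sign at both supplies, computed from the authors' deposited tables. Because the genes were chosen by the value over both supplies, this agreement in sign is largely set by the choice. The supply test passed 8 of the 261. Below, a gene that was not called is said to be higher or lower where it passed this test of any difference.

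The nicotianamine synthase genes NAS2 (OS03G0307200) and NAS1 (OS03G0307300), neighbours on chromosome 3, were lower in the inefficient class. For NAS2 the derived means were 179 without Zn and 300.1 with Zn in efficient crowns, and 24.2 and 55.2 in inefficient crowns, computed from the authors' deposited tables. For NAS1 they were 132 and 321 in efficient and 24.8 and 85.5 in inefficient crowns, computed from the authors' deposited tables. The derived means of both genes were thus lower in inefficient crowns at each supply. By the test of any difference NAS2 passed without Zn (-2.89, SE 0.67, adjusted p = 0.00126) but not with Zn (-2.44, SE 0.66, adjusted p = 0.168). NAS1 passed at neither supply, with -2.42 (SE 0.82, adjusted p = 0.0694) without Zn and -1.91 (SE 0.81) with Zn. Over both supplies the log2 difference was -2.66 (SE 0.45) for NAS2, with an adjusted p of 9.18e-06 for any difference and 0.336 for one beyond 2-fold, from the authors' deposited table. It was -2.16 (SE 0.56) for NAS1, with adjusted p = 0.0234 and 1, from the authors' deposited table. These genes are close copies of each other in sequence, and the authors' way of splitting reads between them was not analysed here. NAS3 (OS07G0689600), the third synthase gene, had a log2 difference of 0.18 (SE 0.14, 95% interval -0.10 to 0.46), computed from the authors' deposited table.

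The later steps of mugineic acid synthesis had no averaged difference past either test, and opposite signs at the supplies. NAAT1 (OS02G0306401), the nicotianamine aminotransferase, had log2 differences of 1.33 (SE 0.42) without Zn and -1.45 (SE 0.43) with Zn and of -0.05 (SE 0.48) over both, in the authors' deposited tables. DMAS1 (OS03G0237100), the deoxymugineic acid synthase, had 1.07 (SE 0.42) and -1.19 (SE 0.44), and -0.03 (SE 0.44) over both, in the authors' deposited tables. IRO2 (OS01G0952800), a bHLH factor of the iron deficiency response, had -0.59 (SE 0.32) over both, and the iron transporter gene IRT1 (OS03G0667500) had -0.98 (SE 0.44), from the authors' deposited table. Neither passed a test.

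None of 11 zinc transport genes fixed for description passed either test over both supplies. The shares of all genes, 0.0524% beyond 2-fold and 0.804% for any difference, would also give about none in a group of that size. Among the ZIP family of zinc uptake transporters, ZIP1 (OS01G0972200) had the largest difference in size, -0.92 (SE 0.27, 95% interval -1.45 to -0.39, adjusted p = 0.0703 for any difference), computed from the authors' deposited table. ZIP4 (OS08G0207500) had derived means of 2067 and 84.0 without and with Zn in efficient crowns and of 3011 and 114 in inefficient crowns, computed from the authors' deposited tables. Its derived mean was higher without Zn in both classes, and its class difference was 0.50 (SE 0.19, 95% interval 0.13 to 0.86). ZIP5 (OS05G0472700), ZIP9 (OS05G0472400) and ZIP7 (OS05G0198400) had -0.12 (SE 0.27), -0.21 (SE 0.29) and -0.20 (SE 0.47), and ZIP8 (OS07G0232800) had 0.33 (SE 0.27), from the authors' deposited table. The vacuolar pump gene HMA3 (OS07G0232900) had -0.72 (SE 0.27), and HMA2 (OS06G0700700), which loads zinc for transport to the shoot, had -0.07 (SE 0.12), from the authors' deposited table. Without Zn, ZIP1 passed the test of any difference as lower (1.6% of all genes) and HMA1 (OS06G0690700) as higher (2.44%). Over the wider annotation list of zinc and metal transporters, 47 were tested and 0 were called over both supplies, where 0.0524% of all genes also gives about none. By the test of any difference 2 passed as lower (NAS1 and NAS2, against 0.471% of all genes). The median was -0.11, against 0.00 for all genes with a mean of at least 20.

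**Figure D3:**
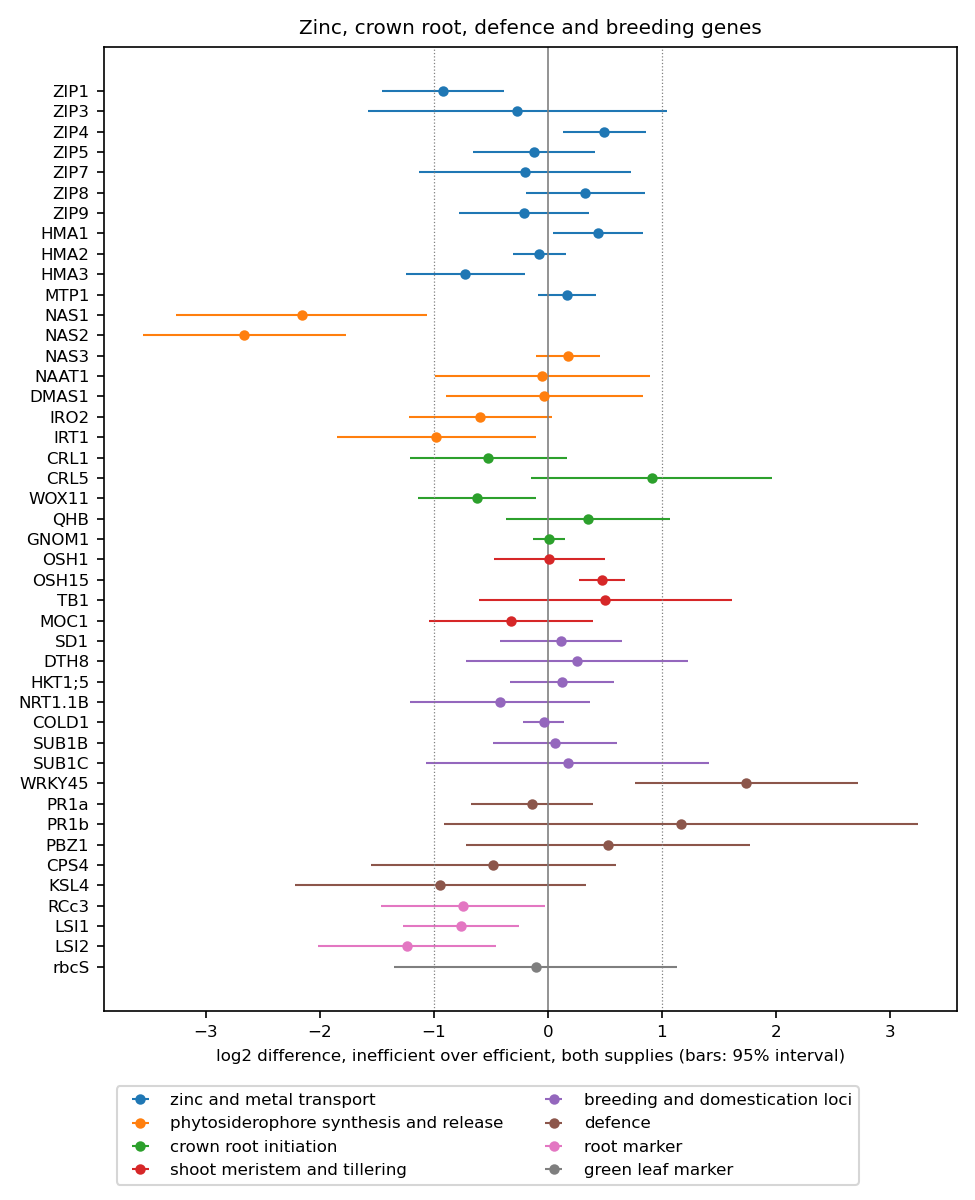
Log2 difference, inefficient over efficient, over both supplies, with 95% intervals, for the 44 genes of zinc transport, phytosiderophores, crown roots, shoot meristem, breeding loci, defence, root and green leaf with a mean of at least 5, coloured by role. NAS1 and NAS2 lie lowest at -2.16 and -2.66, WRKY45 highest at 1.74, and the zinc transporters between -0.92 and 0.50.

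The shoot meristem gene OSH15 (OS07G0129700), a KNOX homeobox factor, was slightly higher in the inefficient class. Its derived means were 1139 and 1213 without and with Zn in efficient crowns and 1571 and 1707 in inefficient crowns, computed from the authors' deposited tables. The log2 difference was 0.48 (SE 0.10, adjusted p = 0.00146 for any difference), with 0.46 without Zn and 0.49 with Zn, from the authors' deposited tables. The related OSH1 (OS03G0727000) had 0.01 (SE 0.25) from the authors' deposited table. Of the crown root initiation genes, WOX11 (OS07G0684900) and CRL1 (OS03G0149100), which promote the emergence of crown roots, had -0.62 (SE 0.26) and -0.52 (SE 0.35), and CRL5 (OS07G0124700) had 0.91 (SE 0.54), from the authors' deposited table. No gene of that group of 5 passed either test over both supplies, where shares of 0.0524% and 0.804% of all genes would also give about none. Without Zn, WOX11 passed the test of any difference as lower, at -1.14 (SE 0.31, adjusted p = 0.00889), against 1.6% of all genes. With Zn it had -0.09 (SE 0.31).

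The root-specific gene RCc2 (OS10G0551800), which is not one of the fixed genes and was picked after its values were seen, was lower in the inefficient class over both supplies. It had derived means of 155 and 172 without and with Zn in efficient and 47.3 and 120.0 in inefficient crowns, computed from the authors' deposited tables. Its log2 difference was -1.1 (SE 0.28, adjusted p = 0.0186 for any difference), from the authors' deposited table. The root marker RCc3 (OS02G0662000) and the root silicon transporter genes LSI1 (OS02G0745100) and LSI2 (OS03G0107300) had -0.74 (SE 0.37), -0.76 (SE 0.26) and -1.23 (SE 0.40) over both supplies, in the authors' deposited table, and none passed. The test of any difference passed 1314 of 32514 genes without Zn (4.04%, with 2.44% higher and 1.6% lower in the inefficient class) and 22 with Zn (0.0677%, with 0.0185% higher and 0.0492% lower), computed from the authors' deposited tables. Without Zn all 3 root markers passed it as lower, at -1.47, -1.20 and -1.69, while with Zn they had -0.02, -0.32 and -0.78, from the authors' deposited tables. The green leaf list of photosystem and chlorophyll-binding genes had a median of 0.09 over both supplies, computed from the authors' deposited table. Of its 50 genes tested 0 were past either test, against 0.0524% of all genes beyond 2-fold and 0.804% for any difference. The part of tissue composition in the class difference was not tested.

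Some further genes that passed the test of any difference as lower in the inefficient class were picked for description after their values were seen, and stand for no group. The tonoplast aquaporin gene OS02G0658100 had -1.89 (SE 0.43) and derived means of 847 and 689 in efficient against 172 and 246 in inefficient crowns, computed from the authors' deposited tables. OS04G0401000, a proline-rich protein gene annotated for blast resistance, had -1.86 (SE 0.37), and OS12G0476200, annotated as a sucrose transporter and target of a bacterial TAL effector, had -1.09 (SE 0.26), from the authors' deposited table. The AP2/EREBP factor gene OS05G0121600, annotated for starch biosynthesis, had a smaller but precise difference of -0.74 (SE 0.13), from the authors' deposited table. GOS9 (OS06G0169001) had derived means of 320 and 131 in efficient against 83.6 and 50.5 in inefficient crowns, computed from the authors' deposited tables. In these 5 genes each supply showed the same sign.

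Of the 39 annotation lists, 6 held a called gene over both supplies, and list medians lay between -0.34 and 0.26 on the log2 scale, computed from the authors' deposited table. Lectins, germins and jacalins had 1 lower call among 136 tested (0.0185% of all genes), and by the test of any difference 6 lower (0.471% of all genes) and 1 higher (0.333%), with a median of -0.09 against 0.00. The 6 include the curculin-like mannose-binding lectin genes OS10G0155100, OS03G0245500 and OS09G0535400, whose log2 differences in the authors' deposited table were -1.81 (SE 0.31), -1.49 (SE 0.35) and -1.39 (SE 0.29). Of 309 genes found as NB-ARC immune receptors by their product text, 0 were called (0.0524% of all genes). By the test of any difference 2 were higher and 2 lower, a share close to that of all genes (0.804%). This list leaves out the called gene OS09G0327575, similar to Pi5-1, because its product text does not match the pattern. The receptor genes OS11G0226800 and OS11G0229700 were higher, at 1.72 (SE 0.35) and 5.93 (SE 1.51), from the authors' deposited table. OS11G0227200, of the same stretch of chromosome 11, was lower at -5.13 (SE 1.44), and OS08G0170700 was lower at -1.06 (SE 0.28), from the authors' deposited table. The means of OS11G0229700 and OS11G0227200 were only 6.59 and 6.32 normalized counts, so the sizes of their differences rest on low counts. Class III peroxidases had the lowest list median, -0.34. Of their 37 members with a mean of at least 20, 27 were below 0, against 10112 of all 20385 genes with such a mean. Of 62 tested 1 was past the test of any difference, against 0.804% of all genes.

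Several called genes lay close together in locus order. On chromosome 4, OS04G0170500 and OS04G0173800, both lower, had 2 tested genes between them, and OS04G0114950 and OS04G0115700, of opposite direction, had 4. On chromosome 7, OS07G0122000 and OS07G0131600, both lower, had 50 between them. Chromosome 4 held 4 of the 17 and chromosomes 10 and 12 held 0, and no called genes were immediate neighbours among tested genes in locus order. By the test of any difference there were 6 runs of at least 2 neighbours, of which 5 had 1 direction, and 1 run of 3, OS02G0653200, OS02G0653300 and OS02G0653400, at -0.86, -0.92 and -1.17 in the authors' deposited table. The share of genes passing the test of any difference was 1.37% on chromosome 2, 1.32% on chromosome 11 and 0.602% on chromosome 1. Linked genes share a haplotype, so neighbours are not independent of each other.

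Relatives on the same or another chromosome differed in opposite directions in some cases. The ALY gene OS12G0100100 was lower at -2.00 (SE 0.24), with derived means of 216 and 289 in efficient against 48.7 and 79.8 in inefficient crowns, and its relative OS11G0100200 was higher at 0.87 (SE 0.20), from the authors' deposited tables. The DUF1719 gene OS07G0120800 was higher at 0.70 (SE 0.18), against -5.78 for OS07G0122000, in the authors' deposited table. Genes of the Nonaspanin family, OS08G0554900 and OS08G0555300, had -1.08 (SE 0.27) and 2.17 (SE 0.48), from the authors' deposited table. For such copies, reads shared between relatives were not tested, and each value is uncertain to that extent.

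At a single supply the classes differed far more without Zn than with Zn. Without Zn, 97 of 32514 genes tested were called (0.298%), with 89 higher (0.274%) and 8 lower (0.0246%) in the inefficient class in the authors' deposited table. With Zn, 3 were called (0.00923%), and all 3 were lower: OS04G0170500, OS04G0173800 and the DUF247 gene OS06G0524700. The call of OS06G0524700 rests on a log2 difference of -21.0 (SE 4.09) at a mean of 13.3 normalized counts, with a Zn response listed as exactly 0 in the inefficient class, and over both supplies it had -7.14 (SE 2.67, adjusted p = 1, and 0.256 for any difference), from the authors' deposited tables. With Zn no gene was called higher by the authors' DESeq2 test, while 17 higher genes had an unadjusted p under 0.05 and 6 passed the test of any difference, from the authors' deposited table. The SEs were alike, with medians of 0.283 without Zn and 0.284 with Zn among genes reaching a mean of 20, while the SD of the log2 differences across genes was 0.75 and 0.48. The pooled comparison shares its libraries with both.

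The 89 genes called higher without Zn had a median log2 difference of 3.92 there and of -0.27 with Zn, where 33 were above 0 and 56 below, computed from the authors' deposited tables. The difference between supplies was itself past the test, with a higher value without Zn, for 70 of them, against 1.05% of all genes. The 89 were chosen by their value without Zn, which enters this difference, so that count is largely set by the choice. WRKY45 (OS05G0322900), a defence transcription factor of the salicylic acid pathway, had derived means of 380 and 149 without and with Zn in efficient crowns and of 3876 and 161 in inefficient crowns, computed from the authors' deposited tables. Inefficient crowns without Zn stood alone. Its log2 difference of 1.74 over both supplies (SE 0.50) had an adjusted p of 1 beyond 2-fold and of 0.0571 for any difference, from the authors' deposited table.

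**Figure D4:**
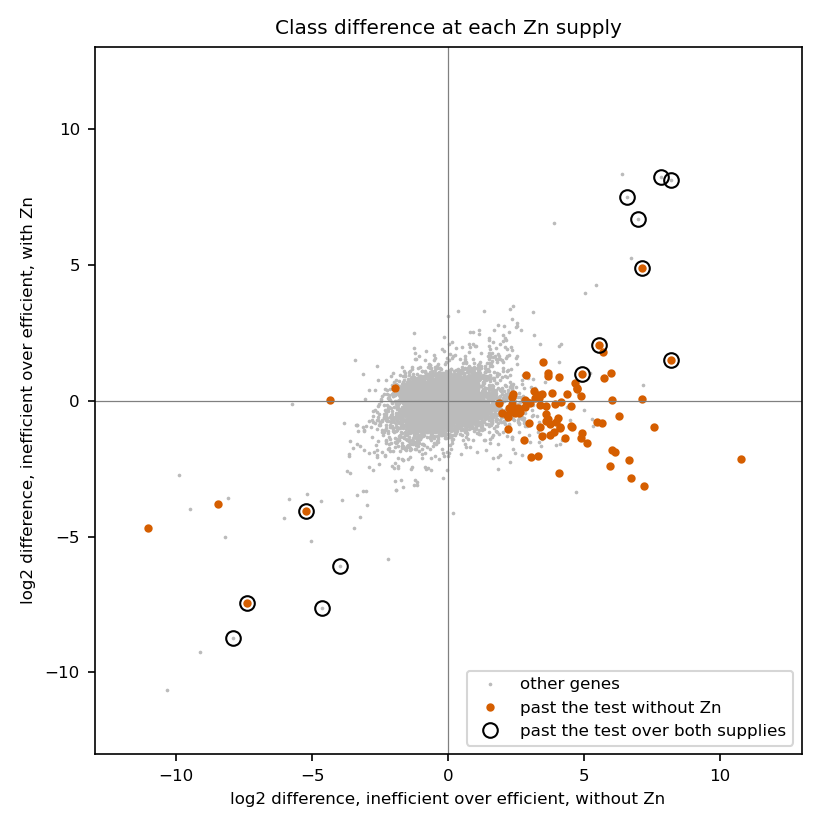
Log2 difference, inefficient over efficient, without Zn (horizontal) and with Zn (vertical) for the 19882 genes with a mean of at least 20, with genes called without Zn in orange and genes called over both supplies ringed. The genes called higher without Zn, chosen by the horizontal value, have a median of 3.92 on the horizontal and -0.27 on the vertical axis. The 13 ringed points, chosen by the value over both supplies, have the same sign on both axes.

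Across the 19882 genes that have a deposited p and reach a mean of 20, the differences at the supplies had a Pearson correlation of 0.28 and a Spearman correlation of 0.09, computed from the authors' deposited tables. With genes without a deposited p added, these were 0.79 and 0.12. These tables share no library but share the genotypes, and genes are not independent replicates. A difference over 1 in size was found at both supplies with the same sign in 321 genes and with opposite signs in 90, without Zn alone in 1737 and with Zn alone in 283. WRKY factors had 4 of 83 called higher without Zn, against 0.274% of all genes, and a median of 0.23 without Zn, -0.31 with Zn and 0.09 over both. The core and linker histones, the packaging proteins of DNA, had medians of -0.71 without Zn, 0.20 with Zn and -0.21 over both. Without Zn 46 of 53 members with a mean of at least 20 were below 0, against 10055 of all 20385 genes with such a mean. With Zn 12 of the 53 were below 0, against 10496 of those 20385 genes. Of these histone genes 0 were called at either supply or over both, and by the test of any difference 9 of 69 were lower without Zn, against 1.6% of all genes, computed from the authors' deposited tables. With Zn and over both supplies 0 of the 69 were lower, and the shares of all genes, 0.0492% and 0.471%, are also low enough to give about none in a list of that size. Cell wall enzymes had medians of -0.51 without Zn, 0.03 with Zn and -0.20 over both, and by the test of any difference 15 of 234 were lower without Zn, against 1.6% of all genes, and 0 with Zn, against 0.0492%, computed from the authors' deposited tables.

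**Figure D5:**
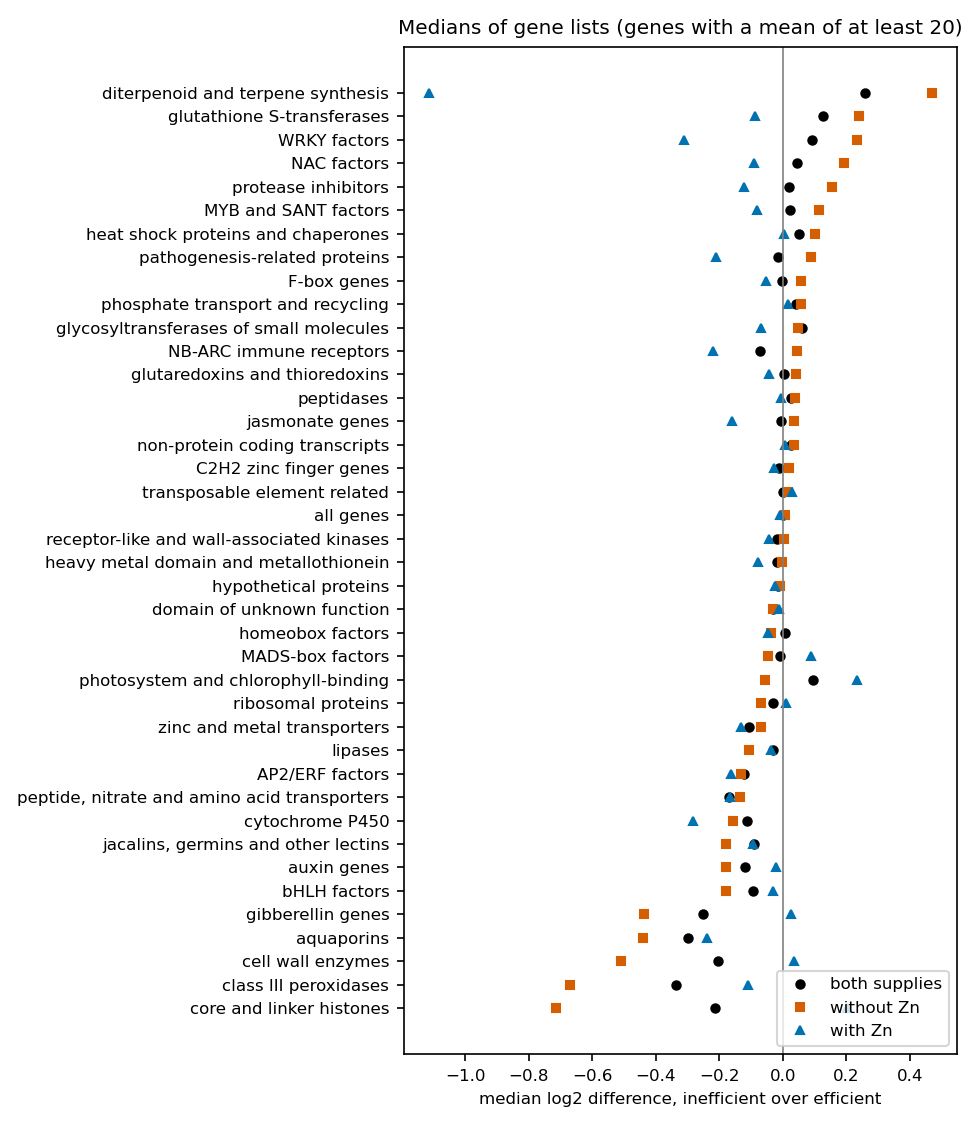
Median log2 difference, inefficient over efficient, of each annotation list over members with a mean of at least 20, for both supplies (black circles), without Zn (orange squares) and with Zn (blue triangles), with all genes as a list of their own. Histones range from -0.71 without Zn to 0.20 with Zn, and the black circles lie between -0.34 and 0.26.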

How the data were processed

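Zn-inefficient and Zn-efficient crowns were compared from the 6 deposited tables of the authors' comparisons, 5 of which were used. Per the submitters' processing notes, the genome build was IRGSP-1.0 and the tools were DESeq2 1.12.3, HISAT2 2.0.4, Subread 1.5.0-p3 with its featureCounts, Trimmomatic 0.36 and FastQC 0.11.5. The annotation release and the model formula are not given in the sources used here. Per the file headers, the authors' tables give for each gene the mean normalized count (a signal: counts divided by size factors), the log2 fold change with its SE on the log2 scale, a score and a p-value with its Benjamini-Hochberg adjusted p-value. From the values, the authors' deposited score is the log2 difference less 1 in size over its SE, so the test is two-sided and asks for a difference beyond 2-fold; recomputed p-values differed from the deposited ones by at most 1.44e-14. Genes without a p-value, 816 over both supplies and 763 at each supply, were not tested here.

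Computed here, with scipy 1.17.1, numpy 2.4.6, pandas 2.3.3 and matplotlib 3.10.9 under Python 3.11.15, were a two-sided normal test of any difference, 95% intervals, the difference between supplies (491 genes passed) and derived group means. The derived means take each of the 4 groups to count equally in the overall mean. They were left out where the contrasts missed closure by more than 0.01, as in 64 of the genes reaching a mean of 20. At the median SE of genes reaching that mean, 0.204, a log2 difference of 1.87 is needed to be called. The tests were tested on simulated data. Groups come from the labels. Nothing says that libraries came from separate cultures, and p-values measure the spread between these samples. Each genotype enters the comparison over both supplies with 2 libraries, and whether the authors' model allowed for this is not known. The median SE was 0.204 there, against 0.283 without Zn and 0.284 with Zn. If the 2 libraries were taken as independent, the pooled SEs and p-values are too small for a difference between 3 and 3 genotypes. Gene coordinates and sequences were not used here.

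Members and lists were chosen with earlier results of these data known. The rule for named genes took the 10 largest differences in each direction among genes called over both supplies and at each, if their product text was informative and their mean reached 20, which left 1 gene. It added up to 3 called members of each list, 50 fixed genes (46 measured; WAXY, HD1, EHD1 and RC are not reported), the 10 clearest differences between supplies and the longest runs of neighbours. The other called genes are described because they complete the set of 17, and further genes past the test of any difference were chosen after their values were seen. Fixed genes' symbols were matched from memory to loci and checked against the product text. Lists were searched in product descriptions, with 39 patterns corrected after a first look because some matched unrelated words. No list was tested.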

Additional observations from a re-analysis of the deposited data

Results flagged for a closer look

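For 14 named genes the class difference without Zn differed from that with Zn by the test of the difference itself, with Benjamini-Hochberg adjustment over 32514 genes, computed from the authors' deposited tables; 491 genes (1.51%) passed it. The values that follow are the log2 class difference, inefficient over efficient, without Zn less that with Zn, and their part in the averaged comparison is given in the report where the gene appears there. Of the fixed genes, the zinc-transporting ATPase gene HMA1 had 1.04 (SE 0.24, adjusted p = 0.00396), NAAT1 2.78 (SE 0.60, adjusted p = 0.00116), DMAS1 2.27 (SE 0.61, adjusted p = 0.0204) and WRKY45 3.24 (SE 0.48), computed from the authors' deposited tables. For HMA1 the class difference was 0.95 without Zn and -0.09 with Zn in the authors' deposited tables.

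The 10 genes with the largest ratio of this value to its SE were chosen by it, so their values are a description. Glycosyltransferase genes OS01G0734800 and OS03G0757600 had 3.55 (SE 0.30) and 4.22 (SE 0.51), the hydrolase-fold gene OS03G0790500 had 6.25 (SE 0.61) and the viral-response family gene OS09G0444900 had 6.24 (SE 0.66), computed from the authors' deposited tables. The AAA-type ATPase gene OS01G0623500 had 3.24 (SE 0.38), the hydroxyisourate hydrolase-like gene OS05G0366600 had 4.37 (SE 0.51), the VQ domain gene OS06G0666400 had 2.81 (SE 0.34) and the MRP-like ABC transporter gene OS01G0173900 had 4.33 (SE 0.61), computed from the authors' deposited tables. The calmodulin-binding gene OS08G0360300 had 5.0 (SE 0.71). The plasma membrane polypeptide gene OS02G0285300 was the 1 gene of the 10 with a negative value, -2.39 (SE 0.34), with -1.94 without Zn and 0.45 with Zn in the authors' deposited tables.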

How the results depend on the processing

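The 17 genes called over both supplies (11 higher, 6 lower in the inefficient class) became 261 (108 and 153) by a test of no change, 36 (26 and 10) from the inverse-variance mean of the within-supply tables, and 6 (3 and 3) when SEs were widened by 1.16, the robust SD of the statistic across genes. The cause of the increase to 36 was not tested. The 261 in turn became 82 (39 and 43) with widened SEs and 109 (50 and 59) at an adjusted p under 0.01; these were chosen after seeing the data. Without Zn the 97 calls became 1314 by a test of no change, and with Zn the 3 became 22 by that test and 1 at 0.01. The 491 differences between supplies became 233 at 0.01 and 33 beyond 2-fold. Called genes near 0 in a class went from 5 to 13 with a limit of 5 normalized counts, and runs of at least 3 neighbours from 0 to 1 by the test of any difference, an alternative also chosen after seeing the data. The other alternatives for these counts stayed within 1.5 times. Among named genes, widened SEs took 11 of the 17 calls. The inverse-variance mean added calls for 5 genes named for their difference between supplies, and no called gene changed sign in either; DMAS1, which was not called, went from -0.03 to 0.00. No paired analysis was possible because no value of a single library was analysed here, and leaving out libraries was not run for the same reason.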
